A study of Mus musculus with 10 samples.

Results

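Expression of 10 genes of gp130 cytokine signalling was examined in single-cell RNA-seq (scRNA-seq) data of mouse retinal ganglion cells (RGCs), the neurons whose axons form the optic nerve. The 10 genes, found by their symbols among the 34254 genes counted, were the receptor genes Il6st, Lifr, Cntfr, Osmr and Il6ra, the kinase genes Jak1 and Jak2, the transcription factor gene Stat3, and the inhibitor genes Socs2 and Socs3. RGCs were profiled in 6 libraries from uninjured retinas and in 4 libraries from retinas taken 2 weeks after optic nerve crush (ONC), an injury that severs RGC axons behind the eye. The mice were wild-type 129S1/SvImJ of both sexes at 12 weeks of age. Per the sample labels, each batch pooled 10 retinas, RGCs were captured by immunopanning against the surface protein Thy1 after macrophages had been removed in the same way, and 6000 cells per batch were loaded, while the series description also names FACS. The paper's methods name depletion of amacrine cells beside that of macrophages. The labels do not say whether libraries of a condition came from separate animals, so p-values measure the spread between these libraries.

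Cytokines of the interleukin-6 family, such as CNTF, LIF and interleukin-6, mostly signal through receptor complexes that contain gp130, the protein encoded by Il6st. Ligand binding activates JAK kinases bound to the receptors, which phosphorylate STAT3, and STAT3 then enters the nucleus and switches on target genes, among them Socs3, whose product blocks the receptor and its kinases. In RGCs, CNTF delivery and deletion of Socs3 are known for promoting survival and axon regeneration after ONC.

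The files held 1683 uninjured cells and 1609 injured cells. RNA molecules were counted by UMIs, short tags added at capture. Library totals ranged from 2839693 to 23180399 in uninjured and from 4698799 to 8860536 in injured RGCs. Injured cells were shallower, with library medians of 11257 to 14695 UMIs per cell against 20437 to 34337 without injury. Injured 3 and injured 4 shared 421 cell barcodes and differed by less than the sampling noise, so their mean stands for a single sample, injured 3/4. Comparisons were thus made over 6 uninjured and 3 injured samples, and the injured cells were 1188 distinct ones. These samples may not be independent. The summed counts of uninjured 1 and 2, 3 and 4, 5 and 6, and of injured 1 and 2 differed by 1.82, 1.87, 1.47 and 2.28 times the sampling noise (a median chi-square ratio), against 3.86 to 21.2 for other pairs of uninjured libraries. Each of these pairs shared 0 cell barcodes, and the labels do not say what the libraries of a pair have in common.

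Libraries of the injured group also differed in other ways. UMIs of mCherry, a fluorescent reporter that is not a mouse gene, were found in 7.99%, 15.0%, 86.0% and 84.3% of cells in injured 1 to 4 and in 0 uninjured cells. UMIs of Xist, which is expressed in female cells, were found in 62.1% and 67.4% of cells in injured 1 and 2 and in at most 0.569% of cells in every other library. The labels mention neither difference. Ribosomal protein genes held 5.29% to 6.04% of the UMIs of a median cell in injured and 2.51% to 4.5% in uninjured libraries. Mitochondrial genes held 1.63% and 1.48% in injured 3 and 4, against 3.05% and 3.15% in injured 1 and 2 and 2.84% to 5.63% in uninjured libraries. Uninjured 5 and 6 stood apart from the other uninjured libraries, and 7 and 8 of their cells had 3 to 5% of UMIs from Malat1, against 35 to 278 cells in uninjured 1 to 4. The part of these differences in the results was not tested. Among the 7 pan-RGC markers (Rbpms, Slc17a6, Sncg, Tubb3, Pou4f1, Thy1 and Nefl), all 7 were detected in every library, with a summed level of 6008 to 7709 CPM (counts scaled by library size) in uninjured and 4112 to 5511 CPM in injured libraries.

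Gene positions are those of GENCODE on GRCm39 (mm39), the build the labels name. Il6st lies on chromosome 13 from 112600604 to 112646620 on the forward strand, with 17 exons in its canonical transcript. Lifr lies on chromosome 15 from 7120095 to 7226970 on the forward strand, and Osmr lies on the same chromosome from 6843053 to 6904450 on the reverse strand. On chromosome 11, Stat3 spans 100775924 to 100830450 on the reverse strand, where the neighbouring gene Stat5a overlaps it on the opposite strand. Socs3 spans 117856905 to 117860898 on that chromosome, also on the reverse strand, and has 2 exons.

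The promoter of Socs3 is shown because it holds the palindrome that STAT proteins bind. RefSeq promoters (build GRCm38.p6, not compared with positions above) were matched by symbol for 9 of the 10 genes, with 15 promoters in all, and Socs2 was not matched. The 250 bases before each start were searched for TTCNNNGAA, which reads the same on both strands. The motif was found in 1 of the 15 promoters, that of Socs3 (chr11:117969367-117969616, reverse strand), and its first letter lies 154 bases before the start. Of all promoters of that length, 2306 of 32851 (7.02%) held the motif. The match is a description of letters and not of binding, and in the sequence below, printed 5′ to 3′, capitals mark the motif.
Socs3 promoter: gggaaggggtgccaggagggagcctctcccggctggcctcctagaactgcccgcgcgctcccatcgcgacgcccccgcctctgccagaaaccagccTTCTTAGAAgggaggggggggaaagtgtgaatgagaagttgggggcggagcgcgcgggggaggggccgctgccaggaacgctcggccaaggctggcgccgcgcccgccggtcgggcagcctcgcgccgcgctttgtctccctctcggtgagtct

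The first comparison was injured against uninjured RGCs over UMI counts summed per library. Of the 10 genes, 9 passed the filter on low counts, and Il6st, Lifr, Cntfr, Il6ra, Stat3 and Socs3 rose after injury, 6 of 9, by the quasi-likelihood test of edgeR at a Benjamini-Hochberg adjusted threshold of 0.05. Across all 14234 genes tested, 6256 (44.0%) were past the threshold, 3026 of them higher (21.3%) and 3230 lower (22.7%) in injured RGCs. Jak1, Jak2 and Socs2 did not pass the test, and no tested member had a log2 fold change below 0. Il6ra and Socs3 were nearly free of UMIs in uninjured libraries and passed the filter through the injured ones, so the count of 6 is not independent of that filter. The median log2 fold change was 1.76 over the 9 genes and -0.03 over all genes tested. Levels below are CPM scaled with TMM factors, and each SD is over 6 uninjured or 3 injured samples.

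Il6st encodes gp130, the signalling chain that most receptors of the family share. Its level in uninjured samples was lowest at 19.3, had a median of 21.9 and was highest at 29.8 CPM, against 92.1, 71.6 and 88.1 CPM in injured 1, 2 and 3/4. All 3 injured samples lay above all uninjured samples. Il6st rose from 23.7 ± 4.99 to 83.9 ± 10.8 CPM (SD, n = 6 and 3), a log2 fold change of 1.80 (SE 0.171, edgeR, Benjamini-Hochberg adjusted p = 6.47e-06). Lifr encodes the LIF receptor chain, which pairs with gp130 for LIF and CNTF. Uninjured samples had a lowest value of 7.08, a median of 9.58 and a highest value of 14.7 CPM of Lifr, against 120.5, 89.8 and 103 CPM in injured 1, 2 and 3/4. The groups did not overlap, and the lowest injured sample was far above the highest uninjured one. Lifr rose 10.0-fold, from 10.0 ± 2.79 to 104.6 ± 15.4 CPM (SD, n = 6 and 3; log2 fold change 3.33, SE 0.197, edgeR, Benjamini-Hochberg adjusted p = 1.89e-07).

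Cntfr encodes the CNTF receptor alpha chain, which binds CNTF but lacks an intracellular signalling domain. Uninjured samples ranged from 13.7 to 28.3 CPM (median 20.1), and injured 1, 2 and 3/4 had 51.1, 53.0 and 55.3 CPM. The injured samples were close to each other and all above the uninjured ones. Cntfr rose by 1.35 on the log2 scale (SE 0.175, edgeR, Benjamini-Hochberg adjusted p = 7.29e-05), from 20.9 ± 4.92 to 53.2 ± 2.10 CPM (SD, n = 6 and 3). Il6ra encodes the alpha chain that binds interleukin-6. Uninjured 1 to 6 had 1, 0, 2, 6, 0 and 0 of its UMIs, while injured 1 to 4 had 46, 35, 92 and 59. In CPM this was 0 to 0.337 (median 0.0752) against 8.05, 7.86 and 10.2 in injured 1, 2 and 3/4. Every injured sample was above every uninjured sample, and the uninjured level rested on 9 UMIs in all. The fitted log2 fold change of Il6ra was 5.66 (SE 0.427, edgeR, Benjamini-Hochberg adjusted p = 1.12e-06). Osmr, the gene of the oncostatin M receptor, had 0, 0, 3, 4, 0 and 0 UMIs in uninjured 1 to 6, against 6, 8, 1 and 4 UMIs in injured 1 to 4. It did not pass the filter and was not tested.

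Jak1 encodes the main kinase of gp130 receptors. It ranged from 89.5 to 123 CPM in uninjured samples (median 115), and injured 1, 2 and 3/4 had 120, 132 and 119 CPM. The groups overlapped, and the log2 fold change of 0.18 (SE 0.135) did not pass (edgeR, Benjamini-Hochberg adjusted p = 0.318). Jak2, a kinase of the same family, ranged from 20.6 to 29.5 CPM in uninjured samples (median 27.9), against 45, 35.5 and 27.7 CPM in injured 1, 2 and 3/4. Injured 1 and 2 were above all uninjured samples, and injured 3/4 was within their range. Its log2 fold change of 0.45 (SE 0.173) just missed the threshold (edgeR, Benjamini-Hochberg adjusted p = 0.0529), which it passed in 7 of 27 alternatives, with adjusted p between 0.00394 and 0.323 over all of them. Of the fits with libraries left out, it passed without uninjured 4 (0.0461) and without injured 3 and 4 (0.0186). Without injured 1, its log2 fold change was 0.26 (edgeR, Benjamini-Hochberg adjusted p = 0.301).

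Stat3 encodes the transcription factor that these receptors activate by phosphorylation, which RNA does not measure. Its level in uninjured samples ranged from 18.9 to 29.3 CPM (median 25.5), against 84.2, 82.4 and 89.3 CPM in injured 1, 2 and 3/4. The injured samples were close together and all above the uninjured range. Stat3 rose from 25 ± 4.06 to 85.3 ± 3.57 CPM (SD, n = 6 and 3), a log2 fold change of 1.76 (SE 0.143, edgeR, Benjamini-Hochberg adjusted p = 1.96e-06).

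Socs2 and Socs3 encode inhibitors of cytokine receptor signalling. Socs2, known for limiting growth hormone signalling, ranged from 36.7 to 68.1 CPM in uninjured samples (median 46.0), and injured 1, 2 and 3/4 had 66.0, 69.8 and 49.7 CPM. The groups overlapped, and the log2 fold change of 0.34 (SE 0.211) did not pass (edgeR, Benjamini-Hochberg adjusted p = 0.211). Socs3, which acts on gp130 itself, had 0, 0, 0, 15, 5 and 0 UMIs in uninjured 1 to 6, and 40, 43, 63 and 53 UMIs in injured 1 to 4. Its level was 0 in 4 uninjured samples and 0.617 and 0.919 CPM in uninjured 4 and 5, against 7.0, 9.66 and 7.79 CPM in injured 1, 2 and 3/4. The groups did not overlap. The fitted log2 fold change of Socs3 was 4.52 (SE 0.63, edgeR, Benjamini-Hochberg adjusted p = 0.000121), from 0.256 ± 0.408 to 8.15 ± 1.36 CPM (SD, n = 6 and 3). The uninjured level rested on 20 UMIs in 2 libraries, and the fitted value was 4.16 to 5.56 over the alternatives that tested Socs3.

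**Figure D1:**
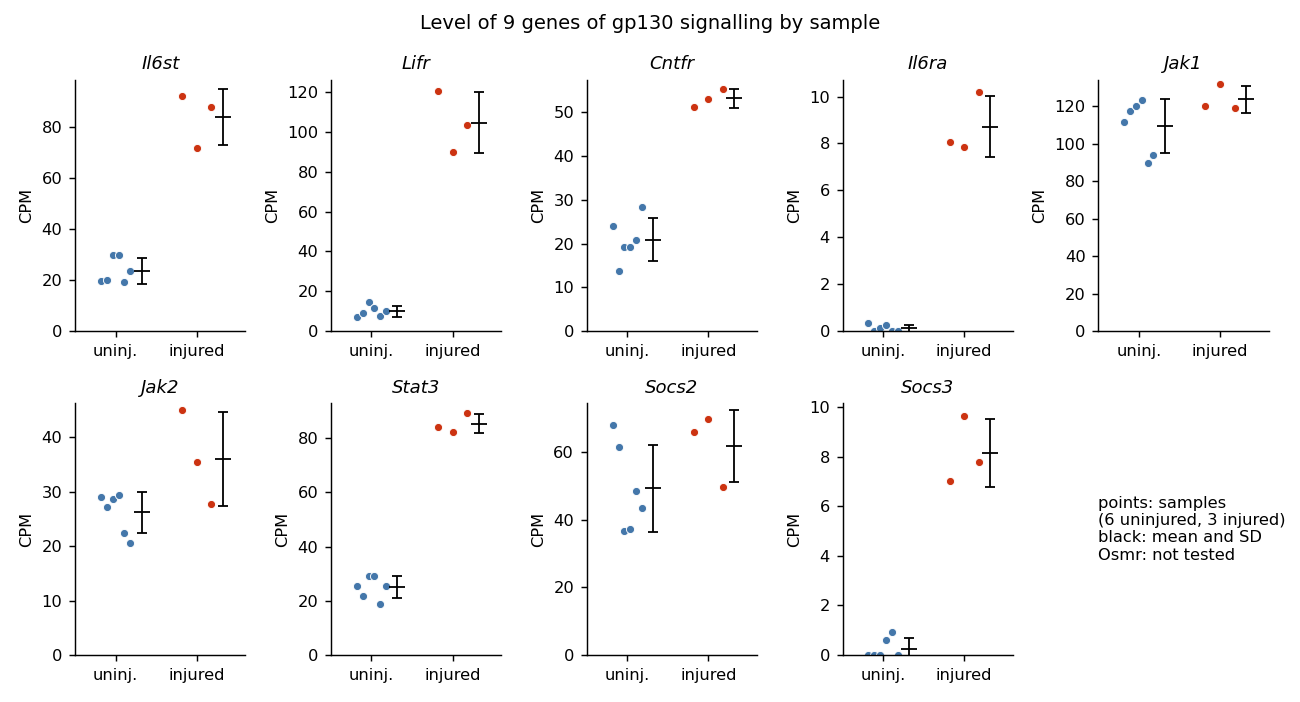
Level in CPM (vertical axis) of the 9 tested genes in 6 uninjured (blue) and 3 injured (red) samples, with the mean and SD in black. Injured samples sit above all uninjured samples for Il6st, Lifr, Cntfr, Il6ra, Stat3 and Socs3, and the groups overlap for Jak1, Jak2 and Socs2.

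The injury comparison was also made with other sets of libraries or cells. Without injured 3 and 4, the log2 fold change was 1.79 for Il6st, 3.36 for Lifr, 1.35 for Cntfr, 5.55 for Il6ra, 1.74 for Stat3 and 4.59 for Socs3. With injured cells free of mCherry UMIs alone, a choice made once the data had been seen, it was 2.04 for Il6st, 3.67 for Lifr and 2.19 for Stat3. In male cells alone it was 1.87 for Il6st, 3.37 for Lifr and 1.86 for Stat3. When each similar pair was added up to form a single unit (3 without and 2 with injury), it was 1.84 for Il6st, 3.38 for Lifr, 1.37 for Cntfr, 5.79 for Il6ra, 1.78 for Stat3 and 4.46 for Socs3. The 6 genes stayed past the threshold in each of these 4 settings. For Il6ra and Socs3, which passed the filter through the injured libraries, passing in any setting is a description and not support. Uninjured 5 and 6 were left out as a pair in the fits to libraries 1 to 4 of each group, which also kept injured 3 and 4 as separate samples. With no replicate block, the 6 genes passed there too, with a log2 fold change of 1.7 for Il6st, 3.17 for Lifr, 1.48 for Cntfr, 5.38 for Il6ra, 1.66 for Stat3 and 4.60 for Socs3.

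Related genes were examined by list, and the counts are to be read beside 44.0% of all genes past the threshold, 21.3% higher and 22.7% lower. Genes nearly free of UMIs in uninjured samples, such as Clcf1, Timp1, Atf3, Cebpd and Il13ra1, can pass the filter through the injured samples, so these counts are a description and not support. Of 12 ligand genes of the family, 2 were tested. Clcf1, which encodes a ligand of the CNTF receptor, rose from 0.624 ± 0.355 to 5.66 ± 0.603 CPM (log2 fold change 2.95, SE 0.375, edgeR, Benjamini-Hochberg adjusted p = 6.21e-05). Ebi3, a subunit of interleukin-27, fell by 1.73 on the log2 scale (SE 0.357, edgeR, Benjamini-Hochberg adjusted p = 0.00203). Over all 10 libraries, Cntf had 57, Lif 4 and Il6 2 UMIs, and these genes were not tested. Of 7 other receptor genes of the wider family, some of which, such as Il31ra, belong to receptors without gp130, 3 were tested, of which Il11ra1 rose (log2 fold change 0.62, SE 0.199) and Il31ra fell (-3.43, SE 1.02), both with overlapping groups. Of 8 other JAK and STAT genes, 6 were tested, 4 rose and 1 fell, with a median log2 fold change of 0.63. Stat5a rose by 2.25 (SE 0.288) and Stat5b by 0.73 (SE 0.205), and Tyk2, a JAK kinase, fell by 0.81 (SE 0.216) on the log2 scale.

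Of 14 other inhibitors, which act as SOCS proteins, STAT inhibitors or phosphatases, 13 were tested and 6 rose, with a median log2 fold change of 0.42. Socs1, an inhibitor of JAK kinases, had 1.87 ± 0.705 CPM in uninjured and 11.9 ± 3.75 CPM in injured samples (log2 fold change 2.76, SE 0.310, edgeR, Benjamini-Hochberg adjusted p = 2.40e-05). Cish, a SOCS gene induced by STAT5, rose by 2.14 on the log2 scale (SE 0.235), Socs7 by 1.39 (SE 0.145) and the phosphatase gene Ptprt by 1.06 (SE 0.323), the last with overlapping groups. SOCS proteins recruit a ubiquitin ligase, and of the 4 genes of its subunits (Elob, Eloc, Cul5 and Rnf7) 0 passed in edgeR's test, 0 had an unadjusted p under 0.05, 0 passed in DESeq2 and 1 passed in limma-voom. Of 6 adaptor genes of the pathway, 1 rose, Gab2 (log2 fold change 1.07, SE 0.168).

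For scale, all 8 genes of a list of known RGC injury genes rose, with a median log2 fold change of 6.81, and of the 7 RGC markers 1 rose and 4 fell, with a median of -0.79. Genes known as targets of STAT3 were listed too, a list of 28 that counts the members Stat3, Socs3 and Osmr again. Of these, 23 were tested, 15 rose and 3 fell, with a median log2 fold change of 1.81, beside 21.3% higher and a median of -0.03 over all genes. The largest changes past the threshold were those of Atf3 (9.38, SE 0.441), Socs3, Timp1 (4.08, SE 0.522) and Serpina3n (4.05, SE 0.392). Atf3 encodes a transcription factor of axon injury, and it has other regulators than STAT3. Serpina3n, which encodes a secreted protease inhibitor, had 2.10 ± 1.45 CPM in uninjured and 37.8 ± 17.3 CPM in injured samples. The 3 genes that fell, named after their values were seen, were Fos (-2.40, SE 0.57), Ier3 (-2.01, SE 0.432) and Bcl2l1 (-1.10, SE 0.119). Of 11 receptors of other cytokines that use JAKs, 10 were tested, 4 rose and 3 fell, with a median log2 fold change of 0.22. Il13ra1, a receptor chain for interleukin-13, rose by 6.60 (SE 0.252), and Prlr, the prolactin receptor, fell by 4.45 (SE 0.558), Epor by 3.51 (SE 0.551) and Ghr, the growth hormone receptor, by 1.17 (SE 0.186) on the log2 scale.

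**Figure D2:**
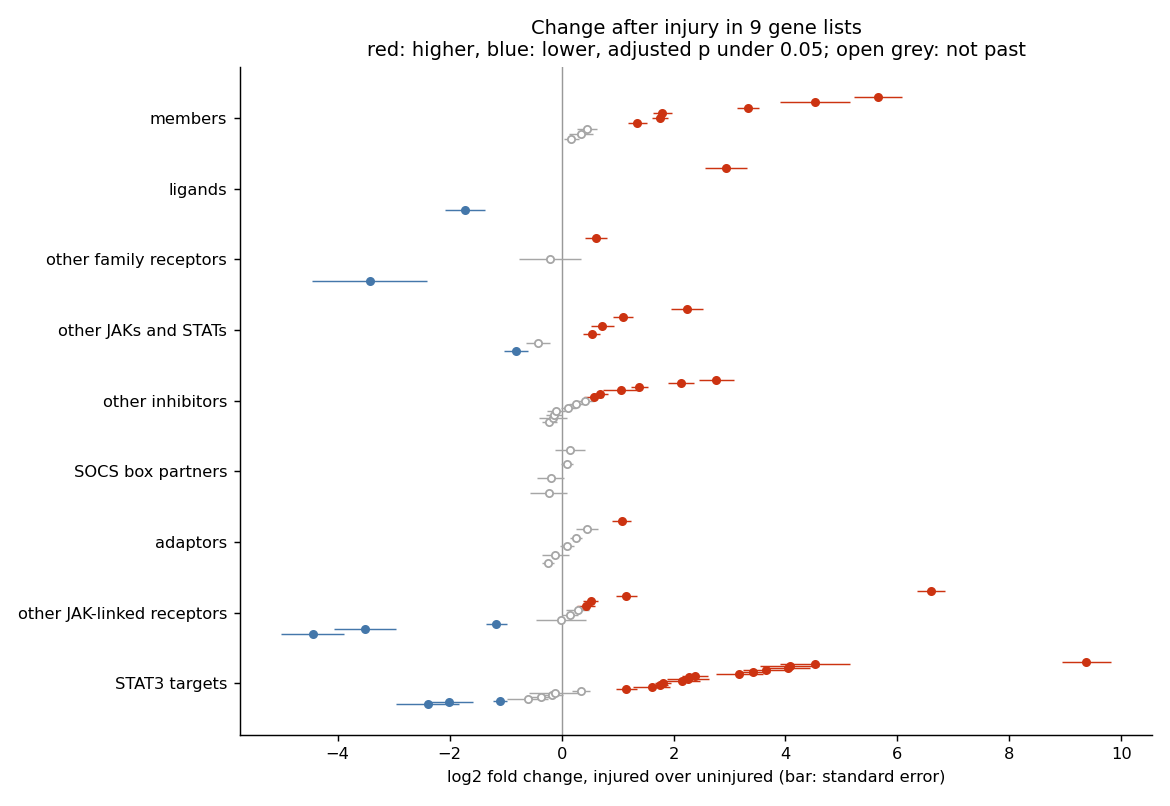
Log2 fold change of injured over uninjured RGCs (horizontal axis) for the tested genes of 9 lists, 1 point a gene with its standard error, filled where past the threshold. The members and the STAT3 targets have median values of 1.76 and 1.81, and the subunits of the SOCS ubiquitin ligase have a median of -0.05.

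Markers of other retinal classes were measured beside these results. Of 8 Müller glia markers, 7 were tested, 3 were higher (Rlbp1, Sox9 and, named after its values were seen, Glul) and 2 lower (Apoe and Dkk3), and their summed level was 112.7 to 195.8 CPM (median 142.8) in uninjured and 108.4 to 134.9 CPM (median 115.7) in injured libraries. Dkk3 was their most abundant gene in uninjured and Glul in injured libraries. Of 7 markers of microglia and macrophages, 3 were tested and 2 were higher (Cd68 and Cx3cr1). P2ry12, also tested, had a log2 fold change of -1.08 (SE 0.463, edgeR, Benjamini-Hochberg adjusted p = 0.078) and did not pass. All 3 had an unadjusted p under 0.05 in edgeR, and 1 was lower in limma-voom. For Cx3cr1 the groups overlapped, with 3.49 CPM in injured 3/4 and 1.68 to 5.43 CPM in uninjured samples. The summed level of the 7 markers was 5.45 to 18.3 CPM (median 7.82) in uninjured and 12.6 to 24.1 CPM (median 17.5) in injured libraries. C1qa and Tmem119 were at 0 in all 4 injured libraries, but also in 4 and 5 of the 6 uninjured libraries, while Csf1r was detected in all 4 injured libraries and C1qb in injured 1 and 2. UMIs of 3 or more markers were found in at most 0.307% of cells in any library for microglia and macrophages, but in 3.75% to 25.8% of cells in uninjured and 1.49% to 8.06% in injured libraries for Müller glia, and in 3.48% to 16.7% and 4.67% to 11.0% for amacrine cells. Of the astrocyte markers 0 of 2 tested passed in edgeR's test, with 1 at an unadjusted p under 0.05 and 1 lower in both DESeq2 and limma-voom, Gfap had 8 UMIs over all libraries, and the summed level of the 5 astrocyte markers was 6.43 to 26.7 CPM in uninjured and 5.87 to 6.81 CPM in injured libraries. The part of these classes in the injury changes was not tested. Cells that had UMIs of 3 or more markers of another class were 7.46% to 32.7% of cells in uninjured libraries, highest in uninjured 4, and 5.52% to 16.5% in injured libraries. Without them, the log2 fold change was 1.86 for Il6st, 3.37 for Lifr, 1.75 for Stat3, 6.14 for Il6ra and 5.23 for Socs3.

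The markers of the remaining classes moved as follows. Of 7 amacrine markers tested, 2 were higher (C1ql2 and Slc6a9), 1 was lower (Pax6) and 4 did not pass in edgeR. Their summed level was 384.6 to 545.1 CPM in uninjured and 327.3 to 429.2 CPM in injured libraries. Pax6 (log2 fold change -1.63) was their most abundant gene in uninjured and C1ql2 (3.44) in injured libraries, so the sums rest on different genes. Of 6 rod markers, 3 were tested, with 1 higher (Pde6b) and 1 lower (Rom1), and their summed level was 39.1 to 69.5 CPM against 18.0 to 45.3 CPM. Of 6 bipolar markers, 1 was tested and was lower, Isl1, which RGCs express as well. The 4 endothelial markers were not tested and summed to at most 4.58 CPM in any library.

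The second comparison was the share of cells with at least 1 UMI of a gene, after each cell had been thinned to 8610 UMIs, which kept 1649 of 1683 uninjured and 1313 of 1609 injured cells. Shares were compared over samples with an exact two-sided permutation test, in which 0.0238 is the smallest p that 6 against 3 samples allow. The test treats these samples as exchangeable, and with each similar pair as a single unit (3 against 2) no exact p could pass 0.05. Of the 10 genes, 7 had higher shares in every injured sample than in any uninjured sample (Il6st, Lifr, Cntfr, Osmr, Il6ra, Stat3 and Socs3), each with an exact p of 0.0238. This stands beside 14.5% with higher and 19.8% with lower shares without overlap among the 14234 genes past the filter on low counts. Osmr is not among those 14234 genes. Il6ra and Socs3 passed that filter through the injured libraries, so their place among the 7 is a description and not support. The place of Osmr among the 7 rested on 1, 1, 0 and 3 cells of injured 1 to 4. Without injured 4, its difference fell from 0.304 to 0.154 points and did not pass (exact permutation p = 0.214). For Il6st the share was 13.7% to 25% in uninjured samples (median 17.1%) and 43.1%, 40.2% and 45.5% in injured 1, 2 and 3/4. For Lifr it was 3.16% to 9.80% (median 7.57%) and 40.3%, 26.8% and 40.7%. In both, the injured samples were well above the uninjured range, with injured 2 the lowest of the injured samples.

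For Cntfr, shares were 12.3% to 22.0% in uninjured samples (median 15.2%) and 35.6%, 36.4% and 37.3% in injured 1, 2 and 3/4. For Stat3, they were 15.5% to 20.7% (median 18.5%) and 36.6%, 33.9% and 45%. Both genes were thus found in more cells of each injured sample. Il6ra was found in 1 of 643 cells of uninjured 4 (0.156%, exact 95% interval 0.00394% to 0.863%) and in 0 cells of the other uninjured libraries, where 0 of 357 cells in uninjured 3 allow a share of up to 0.840%, and 0 of 95 and 0 of 102 cells in uninjured 1 and 2 allow up to 3.16% and 2.94%, against 5.42%, 7.53% and 7.83% in injured 1, 2 and 3/4. Socs3 was found in 4 of 643 cells of uninjured 4 (0.622%, exact 95% interval 0.170% to 1.59%) and in 0 cells of the other uninjured libraries, against 2.03%, 5.44% and 5.43% in injured 1, 2 and 3/4. Intervals and limits cover counting error only. The Socs3 share of injured 1, 6 of 295 cells, was below that of the other injured samples and below the limits of uninjured 1 and 2, so a difference from those libraries was not detectable at this depth.

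Osmr had a UMI in 0% to 0.311% of cells of uninjured samples and in 0.339%, 0.418% and 0.451% of cells of injured 1, 2 and 3/4. As a measure of free RNA, the rod gene Sag had a UMI in 0% to 4.76% of cells of uninjured libraries (mean 1.82%) and in 0.678%, 4.18%, 0% and 1.20% of cells of injured 1 to 4. All cells were thinned to the same depth. Osmr was below Sag in each injured sample and is read as background, and Il6ra and Socs3 were above Sag in each injured sample. For Jak1, Jak2 and Socs2 the groups overlapped, with exact permutation p of 0.167, 0.214 and 0.881. Without thinning, mean shares were 43.3% and 58.3% for Il6st, 19.9% and 44.2% for Lifr, 41.2% and 53.7% for Cntfr, 47.2% and 51.2% for Stat3, 0.313% and 11.8% for Il6ra, and 0.57% and 8.85% for Socs3 in uninjured and injured samples. At these unequal depths the differences of Il6st and Stat3 did not pass, with exact permutation p of 0.119 and 0.643.

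**Figure D3:**
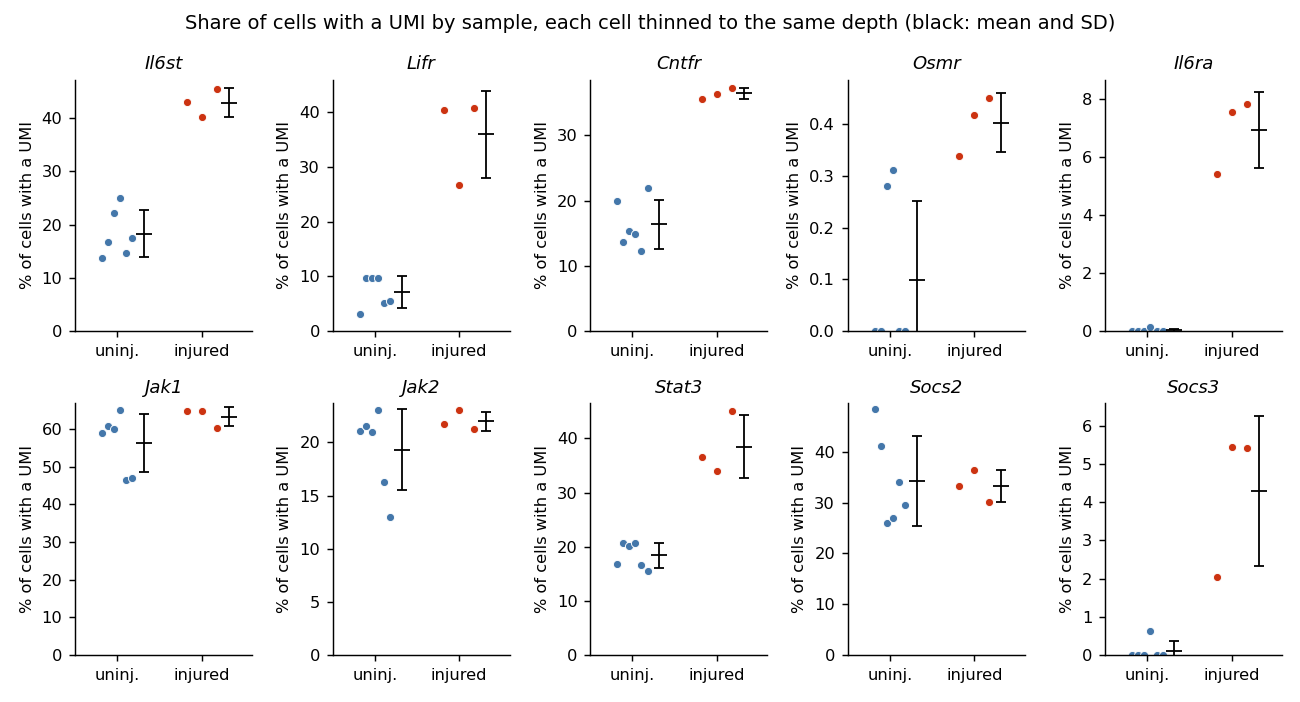
Share of cells with a UMI in percent (vertical axis) for the 10 genes after thinning to 8610 UMIs per cell, in 6 uninjured (blue) and 3 injured (red) samples, with the mean and SD in black. Lifr has 3.16% to 9.80% in uninjured and 26.8% to 40.7% in injured samples, and the Osmr axis ends below 0.5%.

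UMIs were spread unevenly over cells. Over all cells as deposited, 15 of 1683 uninjured cells had a Socs3 UMI (20 UMIs), against 99 of 1138 cells of injured 1 to 3 (146 UMIs). Il6ra had UMIs in 5 uninjured cells and in 145 cells of injured 1 to 3. A single injured cell had up to 40 UMIs of Lifr, against at most 10 in an uninjured cell, although uninjured cells were deeper. The tenth of cells with the most Lifr UMIs held 55.1% to 71.5% of all Lifr UMIs in injured and 59.4% to 88.1% in uninjured libraries, so the ranges overlapped.

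Receptor chains were also counted together in single cells after thinning. CNTF signals through Cntfr, Lifr and Il6st products in 1 complex. All 3 genes had a UMI in 0, 0, 0, 2, 1 and 0 cells of uninjured 1 to 6. In injured 1 to 4 this was so in 18 of 295 (6.10%), 13 of 239 (5.44%), 36 of 446 (8.07%) and 32 of 333 cells (9.61%). The product of the 3 separate shares was 6.18%, 3.92%, 6.26% and 7.59%, so the joint shares were near or somewhat above it. Stat3 and Socs3 both had a UMI in 6, 12, 13 and 12 cells of injured 1 to 4, or 2.03%, 5.02%, 2.91% and 3.60%, where the products were 0.745%, 1.84%, 2.25% and 2.64%. In injured 1, all 6 cells with a Socs3 UMI had one of Stat3 as well.

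Co-expression was described within injured libraries by Spearman correlation across thinned cells, with no test, since cells of a library share their retinas and their capture. The number of cells was 295, 239, 446 and 333 in injured 1 to 4, and correlations are given for injured 1, 2 and the mean of 3 and 4, followed by the mean of the 3. Lifr and Stat3 had correlations of 0.188, 0.248 and 0.265 (mean 0.234). Stat3 and Socs3 had correlations of 0.208, 0.318 and 0.0970 (mean 0.208). For Lifr and Stat3 the values were outside the central 95% of the correlations of Stat3 with 7948 genes found in at least 10% of cells (-0.112 to 0.124). For Stat3 and Socs3, the values of injured 1 and 2 were outside the central 95% of the correlations of Socs3 with 7949 such genes (-0.0859 to 0.106), and that of injured 3/4 was inside. These ranges, and those below, are of means over the 3 samples. The place of a single sample's value inside or outside them is thus a description alone. Il6st and Lifr had a mean correlation of 0.147, Jak2 and Stat3 of 0.118, and Lifr and Socs3 of 0.0939. Cntfr had a mean correlation of -0.0016 with Lifr, 0.0304 with Il6st and -0.0709 with Stat3. Correlations of this size in sparse counts are weak.

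Genes known for their response to axon injury were set beside them. Lifr had a mean correlation of 0.297 with Sprr1a, 0.262 with Atf3 and 0.188 with Gal, against a central range of -0.122 to 0.137 for Lifr. In injured 3/4 alone, the values with Atf3 (0.131) and Gal (0.101) were inside that range. The means of Lifr with the injury genes Sox11 (0.119), Ecel1 (0.0452) and Jun (0.0441) were inside it as well, while the values with Sox11 in injured 3/4 (0.175) and Jun in injured 2 (0.140) were outside. Lifr had a mean correlation of -0.169 with Hrk and -0.168 with Ddit3, and the value with Ddit3 in injured 1 (-0.0992) was inside the range. Stat3 had a mean correlation of 0.187 with Sprr1a, -0.200 with Hrk and -0.258 with Ddit3, against a central range of -0.112 to 0.124 for Stat3, and in injured 3/4 alone the value with Sprr1a (0.0703) was inside that range. Its correlation with Ecel1 was below 0 in all 4 libraries, and the mean (-0.0993) was inside that range, while the value of injured 3/4 (-0.182) was outside. Its means with Atf3 (0.121), Gal (0.110), Sox11 (0.0589) and Jun (0.0567) were inside it too, while injured 2 alone was outside with Atf3 (0.258), Gal (0.203) and Jun (0.199). At 12483 UMIs per cell, the means of Stat3 were -0.183 with Ecel1, 0.165 with Atf3 and -0.00115 with Sox11, and no central range was computed at that depth. The signs with Sprr1a, Hrk and Ddit3 were the same for Lifr and Stat3 in all 4 injured libraries. Socs3 shared them in its means (0.156, -0.132 and -0.136, central range -0.0859 to 0.106). The means of Cntfr had the opposite signs, with -0.0591 for Sprr1a, 0.0871 for Hrk and 0.0958 for Ddit3. Its values with Hrk and Ddit3 were outside its central range (-0.0692 to 0.0737). The mean of Il6ra with Hrk (0.0779) was also above its range (-0.073 to 0.0722). Socs2 had a mean correlation of 0.181 with Sox11 and 0.0048 with Sprr1a. Among all genes compared, Neto1, named after its values were seen, had the highest mean correlation with Lifr (0.364), Stat3 (0.342) and Socs3 (0.257). The correlation of a cell's total UMIs before thinning was 0.213 to 0.398 with Lifr, 0.0931 to 0.201 with Stat3 and 0.0158 to 0.168 with Socs3 over the 4 libraries, and the correlation of summed Müller glia markers was 0.117 to 0.162 with Lifr. The part of depth and of these markers in the correlations was not tested.

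**Figure D4:**
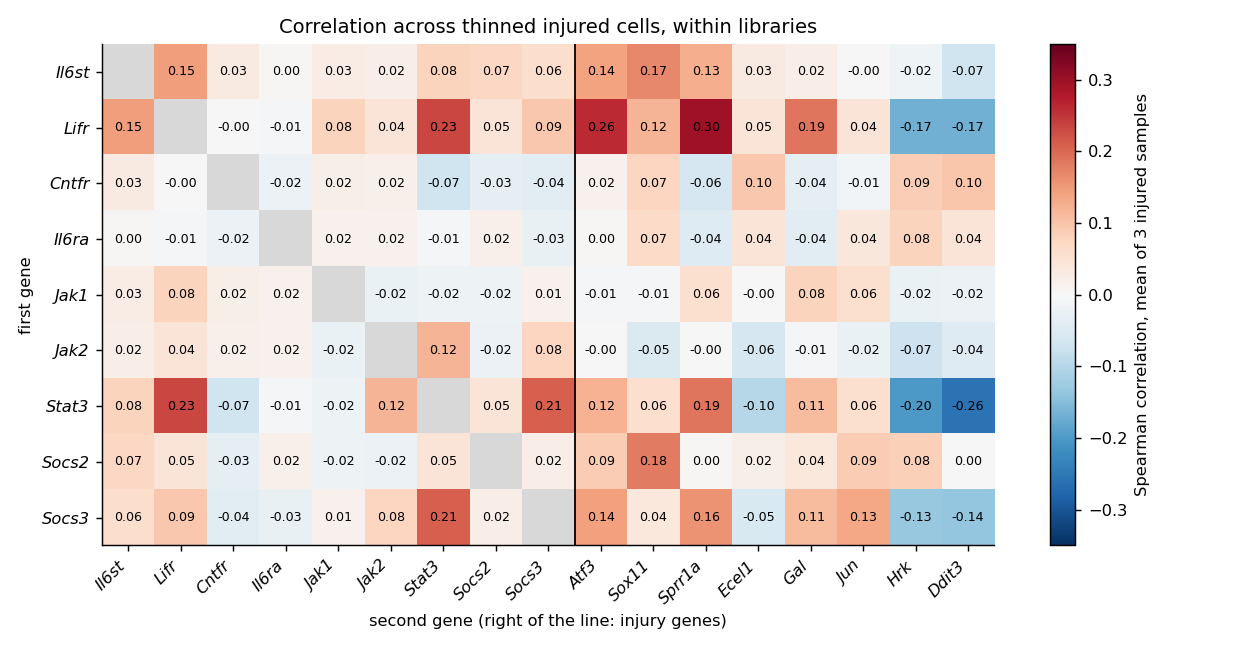
Mean Spearman correlation over 3 injured samples (colour) between each gene (vertical axis) and the other genes or, right of the line, injury genes (horizontal axis), across thinned cells within libraries. Lifr and Stat3 share positive values with Sprr1a (0.297 and 0.187) and negative values with Hrk and Ddit3. Cntfr has the opposite signs (-0.0591 with Sprr1a, 0.0871 with Hrk and 0.0958 with Ddit3).

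The third comparison asked whether levels differed between classes of uninjured RGCs defined by marker genes, with library as a block and thinned counts. Melanopsin cells (Opn4) had 0 of 7 members tested past the threshold (5.2% of all genes), Foxp2 cells 1 of 6 (7.43%), Cartpt cells 0 of 6 (4.25%), Eomes cells 0 of 7 (6.88%), Neurod2 cells 0 of 7 (2.4%) and Zic1 cells 0 of 6 (6.3%) by the quasi-likelihood test of edgeR, Benjamini-Hochberg adjusted over all genes of each class. At an unadjusted p under 0.05 the members numbered 1, 2, 0, 1, 1 and 0 in the same order, and no other tool was run. Classes defined by Spp1 with Kcng4 or by Tbr1 had too few cells. A cell could belong to more than 1 class. In all, 1 of 39 tests passed, which is Socs2 in Foxp2 cells.

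Socs2 was lower in cells with at least 2 thinned UMIs of Foxp2, a transcription factor of F-type RGCs, than in cells with none. It had 24.9, 9.68, 18.3, 45.9 and 16.6 CPM in Foxp2 cells of uninjured 2 to 6, against 75.6, 50.5, 45, 52.6 and 48.8 CPM in cells without. Every library had the lower value in Foxp2 cells, with the smallest difference in uninjured 5, and the values in Foxp2 cells rested on 3, 6, 20, 15 and 4 UMIs. The log2 fold change was -1.31 (SE 0.222, edgeR, Benjamini-Hochberg adjusted p = 7.40e-06). Leaving out each library in turn gave -1.06 to -1.64, with adjusted p of at most 0.00313, and the value was -1.13 in the injured libraries, where it did not pass (edgeR, Benjamini-Hochberg adjusted p = 0.0703). Lifr was tested in 3 of the 6 classes and passed in 0 of them in edgeR, the sole tool run, with 2 at an unadjusted p under 0.05. Its log2 fold change in Eomes cells was 1.46 (SE 0.57, edgeR, Benjamini-Hochberg adjusted p = 0.118) and 0.82 without uninjured 3. In melanopsin cells it was 1.82 (SE 0.725, edgeR, Benjamini-Hochberg adjusted p = 0.25), from 71.5 and 19.4 CPM in melanopsin cells of uninjured 3 and 4, on 8 and 2 UMIs, against 11.5 and 12.5 CPM in other cells. In Neurod2 cells it was -0.72 (SE 0.924, edgeR, Benjamini-Hochberg adjusted p = 0.917).

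**Figure D5:**
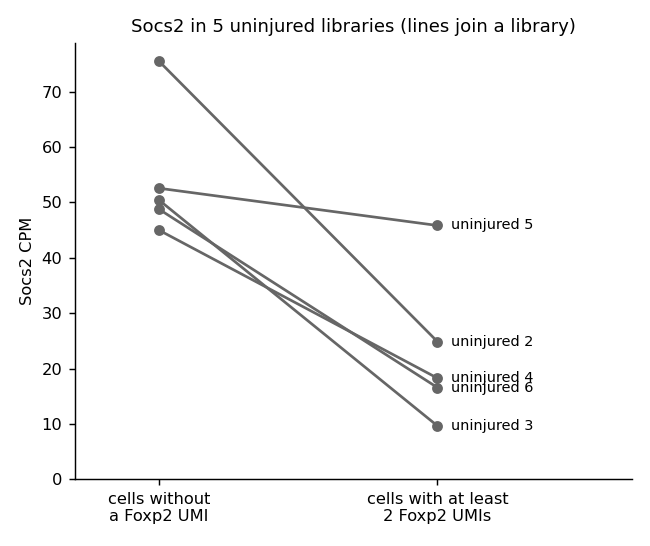
Socs2 level in CPM of thinned counts (vertical axis) in cells without a Foxp2 UMI and with at least 2 Foxp2 UMIs, with a line for each of 5 uninjured libraries. All 5 lines go down, from 45 to 75.6 CPM without to 9.68 to 45.9 CPM with Foxp2.

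Across the 9 samples, the genes most like the members in log2 of CPM plus 1 were named by Pearson r, as a description that the injury contrast shapes. Socs3 was most like Dars (r = 0.992), Wdfy1 and Ccnl1 among 5821 genes whose mean level on the log2 CPM scale reached 5. Stat3 was most like Ctnnd1 (r = 0.999), Smad1 and Mrtfa. Il6st was most like Map2 (r = 0.996), Osbpl8 and Lifr (r = 0.993), so a receptor partner was among its nearest genes. Cntfr was most like Ift43 (r = 0.989), Ssrp1 and Tprkb.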

How the data were processed

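The authors ran Cell Ranger (7.0.1 per the labels, build mm39) and deposited counts of UMIs for each gene in each selected RGC. The authors limited doublets by a maximum of UMIs per cell, and doublets were not called again. Members and gene lists were chosen with earlier results of these data known. UMIs were summed per library (Python 3.11.15; numpy 2.4.6; scipy 1.17.1; pandas 2.3.3), and injured 3 and 4 were averaged and rounded. In R 4.3.3, edgeR 4.0.16 was fitted to all genes (filterByExpr, TMM, robust quasi-likelihood, condition only; checked on simulated data), with Benjamini-Hochberg adjustment. CPM was TMM-scaled, except for sums of markers, which used library totals. The SE is the size of the log2 fold change over the square root of F. Up to 4 genes a list were named, those past the threshold with the largest change. Cells were thinned to 8610 UMIs, the 10th percentile, for shares, correlations and classes. Share p-values are not adjusted over the 10 members, a departure from the plan, because members were chosen with results known. Intervals are exact (Clopper-Pearson, 95%), and a count of 0 has a limit of 3 counts. Alternatives included DESeq2 1.42.0, limma-voom 3.58.1, other scalings, filters, cells and samples, and each library left out. Other experiments of the paper were not analysed here. Some genes of the lists are not reported here.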

Additional observations from a re-analysis of the deposited data

Results flagged for a closer look

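In uninjured 4, the share of thinned cells with a UMI was 0.1555% for Il6ra and 0.6221% for Socs3, while the other 5 uninjured samples were at 0 after thinning, so the gap to the nearest sample was the whole range of the group. This was found in 2 of 19 groups of 6 samples tested. Chance gives about 1 in 20 for continuous values, a rate that does not apply here, because with 5 samples at 0 any single value above 0 spans the whole range. Uninjured 4 is also the library with the most cells and UMIs. Without thinning it did not stand apart. The Socs3 share was then 1.54% in uninjured 4 and 1.87% in uninjured 5. That of Il6ra was 0.307% in uninjured 4, 1.02% in uninjured 1 and 0.551% in uninjured 3.

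A signal outside the main measurement was mCherry, with UMIs in 7.99%, 15.0%, 86.0% and 84.3% of cells in injured 1, 2, 3 and 4 and in 0 cells of the uninjured libraries. Values of Il6st, Lifr and Stat3 without these cells are given with the injury comparison. In that setting 7 of 9 tested members passed the threshold in edgeR, against 6 of 9 with all cells.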

How the results depend on the processing

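Over the alternatives, 4 to 8 members were past the threshold, and 6 or 7 with each library left out. Il6st, Lifr, Cntfr and Stat3 passed in all 27 alternatives. Il6ra and Socs3 passed in the 25 that gave them a test, which for these genes is a description and not support. Beside Jak2, Socs2 passed in limma-voom alone (adjusted p = 0.0179) and Osmr with no filter on low counts (log2 2.89, adjusted p = 0.0112). Past the threshold were 3528 genes, in place of 6256, with cells of 3 to 5% Malat1 UMIs, 4181 with similar libraries summed, 8249 in limma-voom, and 4961 to 6420 with each library left out. The replicate numbers as a block (libraries 1 to 4) gave 7782 genes and 6 members, against 8230 and 6 without it, and the block changed no call of a member. Same-numbered libraries had r of -0.0621 to 0.0125, within the -0.0979 to 0.141 of pairs with other numbers. Whether the numbers pair samples cannot be told from these values, and the labels do not say.

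Without thinning, share differences of Il6st (exact p = 0.119) and Stat3 (0.643) no longer passed and that of Socs2 did (-17.1 points, exact p = 0.0238). The Osmr difference did not pass without cells of another class (exact p = 0.167) or without injured 4 (0.214), and without injured 1 or 2 the design cannot go below 0.0714. With the planned adjustment over the members, the 7 share differences that passed with all libraries did not pass when any 1 uninjured library was left out. The smallest exact p is then 0.0357, which becomes 0.051 when adjusted with 7 genes at that floor. The number of samples thus fixed this outcome, and it does not show that the differences are weaker. That of Lifr was 27.96 to 29.29 points in these settings, against 28.77 with all libraries. In the injured libraries 0 of 14 class tests passed in edgeR, the sole tool run there (4 at an unadjusted p under 0.05), and Il6st and Lifr had a mean correlation of 0.118 at 12483 UMIs per cell. The causes were not tested. Shallow injured cells limit shares of genes with few UMIs.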
